A study of Rattus norvegicus with 3 samples.

Results

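The genes described here encode enzymes that break down the branched-chain amino acids leucine, isoleucine and valine. These enzymes also carry the propionyl-CoA formed from valine and isoleucine into the TCA cycle. The 10 members were the 3 subunit genes of the branched-chain keto acid dehydrogenase (Bckdha, Bckdhb and Dbt), 2 genes of leucine breakdown (Ivd and Mccc1), 2 of valine breakdown (Hibadh and Aldh6a1) and 3 of the propionyl-CoA to succinyl-CoA route (Pcca, Pccb and Mmut). They were chosen by name: each probe set annotated to exactly 1 gene symbol, that symbol being a member, was used. All 10 were measured, by 15 probe sets, among 14217 named genes. The samples were proximal tubules from the renal cortex of male Sprague-Dawley rats 7 to 8 weeks old, in 3 preparations with 1 Affymetrix array each. Every animal was given 250 units of heparin intraperitoneally 30 minutes before it was killed. The kidneys were then flushed with cold buffer (10 ml) and with collagenase (10 ml at 2 mg/ml), the cortex was digested for 20 minutes, and tubules were purified in 42.5% Percoll. All arrays belong to 1 group without controls, and conditions were therefore not compared. Whether a preparation held tubules of 1 rat or of several is not given in the labels, and the spread between arrays may therefore be biological or technical.

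Branched-chain amino acids first lose their amino group to a transaminase, and the resulting keto acids are decarboxylated in the mitochondrial matrix by the branched-chain keto acid dehydrogenase complex. Separate enzymes then take each carbon chain apart, and valine and isoleucine yield propionyl-CoA, which a biotin-dependent carboxylase and a cobalamin-dependent mutase convert to succinyl-CoA. The proximal tubule is rich in mitochondria, reclaims filtered amino acids and oxidises amino acid carbon or passes it to gluconeogenesis. Inherited loss of the enzymes encoded by these genes causes organic acidurias, among them maple syrup urine disease, isovaleric aciduria, propionic aciduria and methylmalonic aciduria, the last of which often damages the kidney.

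Most of the members' promoters held a short element that the choice of members did not use, and 4 promoters are shown because they hold the most copies, adjacent copies or none. RefSeq promoter sequences on the GRCr8 build were available for 9 of the 10 members, Bckdha being the other. The search covered the 250 bases before the annotated start, on both strands. The letters in capitals mark the CCAAT box (CCAAT, or ATTGG on the other strand), the element bound by the transcription factor NF-Y. The Ivd promoter lies at chr3:126305334-126305583 on the plus strand, that of Aldh6a1 at chr6:109829726-109829975, that of Mmut at chr9:27454124-27454373 and that of Pccb at chr8:110520187-110520436, the last 3 on the minus strand.
Ivd: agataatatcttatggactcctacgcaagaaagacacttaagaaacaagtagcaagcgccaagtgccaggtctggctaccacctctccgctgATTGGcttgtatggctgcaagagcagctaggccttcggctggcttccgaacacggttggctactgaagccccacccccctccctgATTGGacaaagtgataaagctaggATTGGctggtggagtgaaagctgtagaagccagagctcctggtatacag
Aldh6a1: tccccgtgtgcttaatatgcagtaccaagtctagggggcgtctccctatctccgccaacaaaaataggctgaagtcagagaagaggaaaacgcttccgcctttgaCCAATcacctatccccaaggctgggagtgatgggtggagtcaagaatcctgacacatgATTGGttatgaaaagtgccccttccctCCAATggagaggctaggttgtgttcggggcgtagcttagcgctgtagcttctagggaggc
Mmut: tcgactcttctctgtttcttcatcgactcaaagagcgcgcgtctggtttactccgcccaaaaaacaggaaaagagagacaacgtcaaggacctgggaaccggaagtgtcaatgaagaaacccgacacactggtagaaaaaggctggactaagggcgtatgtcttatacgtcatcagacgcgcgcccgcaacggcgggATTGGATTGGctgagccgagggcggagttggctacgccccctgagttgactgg
Pccb: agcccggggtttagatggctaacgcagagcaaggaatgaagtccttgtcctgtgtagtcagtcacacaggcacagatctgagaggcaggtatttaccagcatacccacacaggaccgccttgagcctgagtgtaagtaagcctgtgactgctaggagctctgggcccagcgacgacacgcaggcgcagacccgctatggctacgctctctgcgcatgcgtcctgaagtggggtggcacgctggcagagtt

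A CCAAT box was present in 8 of the 9 promoters, Pccb being the exception, and 7 of the 9 held 2 or more. Among all 27457 promoters with a distinct symbol, 34.3% held the box and 9.77% held it 2 or more times. Among the 7363 promoters of genes that exceeded the median on every array, the shares were 36.5% and 13.2%. Ivd and Aldh6a1 held 3 copies, and the pair in Mmut was directly adjacent, its first bases lying 53 and 48 bases before the start. Dbt held copies starting 79 and 43 bases before the start, both on the other strand. Bckdhb held a copy 80 bases before it on the other strand and a copy 44 bases before it on the gene's strand. How often other promoters hold copies at such positions was not counted. The single copy in Hibadh started 169 bases before the start, farther away than the nearest copy of the other members that held a box.

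In all, 12 motifs were searched, and the CCAAT box was singled out after the matches were seen. The GC box (GGGCGG) was present in 6 of 9 promoters, against 61% of those of genes above the array median. The Sp and KLF core (GGGNGG), which also matches every GC box, was present in 9 of 9, against 82.1%. The ETS site (CCGGAAG) matched in Mmut only and the NRF1 site in Hibadh only, against 17.6% and 10.4%. The TATA box (TATAAA), the ERR core (AAGGTCA), the HNF4 site (CAAAGTCCA), the cAMP response element (TGACGTCA), the E-box (CACGTG), the YY1 site and the HNF1 site had no match in the 9 windows. For these, the share among the promoters of genes above the array median ran from 0% for the HNF1 site to 8.92% for the E-box. CpG dinucleotides per promoter ran from 6 in Ivd to 23 in Hibadh, with a median of 13, against 17 for genes above the array median and 6 for all promoters. These are matches of letters, and no binding was measured.

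All 10 genes gave signals far above the array median. Signals are deposited probe-set intensities on a linear scale in arbitrary units. A gene took the value of its probe set of highest mean signal, and the array medians over all non-control probe sets were 37.1, 37.4 and 34.9 on arrays 1, 2 and 3. The lowest member signal on any array was 661 and lay 18.9-fold above that array's median, and the highest was 6533. All 10 members exceeded the median on each of the 3 arrays, as did 61.0% of the 14217 named genes. The median percentile of the members among all named genes was 92.0, 92.3 and 92.1 on the 3 arrays. No detection calls were used here, and because probe sets bind their targets with different strength, the percentile is read for the list as a whole and not for single genes.

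**Figure D1:**
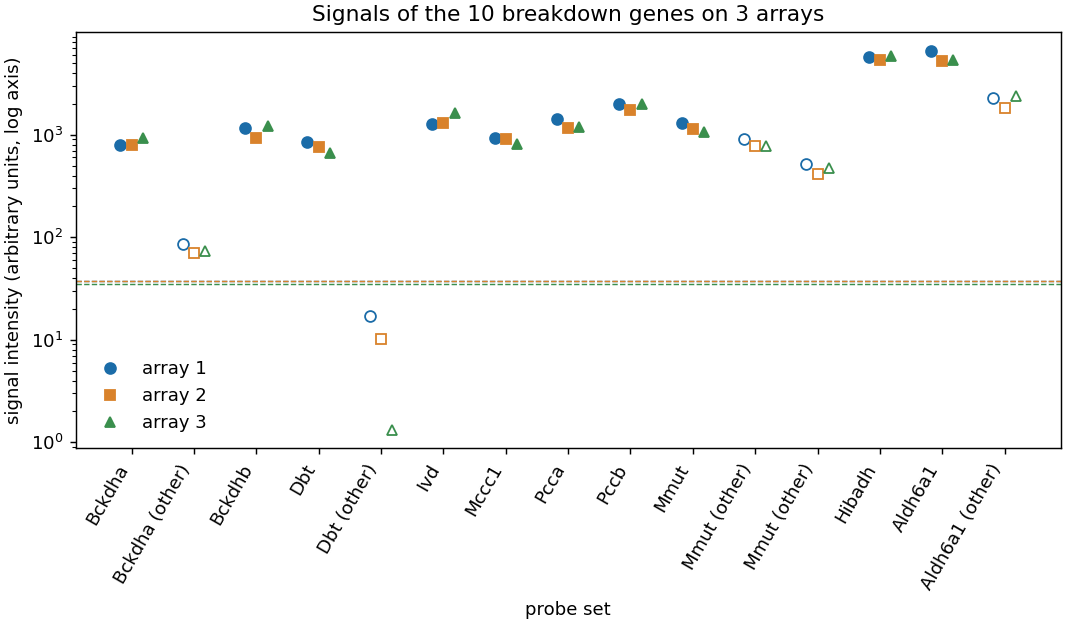
Signal intensity (arbitrary units, log axis) of the 15 probe sets of the 10 genes on arrays 1, 2 and 3. Filled symbols mark the probe set that gave the gene its value, open symbols mark the others, and dashed lines mark the array medians. All filled symbols lie between 661 and 6533, and the lowest open symbols belong to the second Dbt probe set.

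The dehydrogenase complex commits the keto acids to oxidation. Bckdha, which encodes the alpha subunit of its decarboxylase, gave 789, 790 and 922 on arrays 1, 2 and 3 (834 ± 76.6, SD, n = 3). Bckdhb, the beta subunit gene, gave 1169, 921 and 1208 (1099 ± 156, SD, n = 3). Both were highest on array 3, and Bckdhb was lowest on array 2, while Bckdha gave nearly the same signal on arrays 1 and 2. Dbt encodes the core transacylase, whose lipoyl arm carries the acyl group, and it gave 843, 760 and 661 (755 ± 91.5, SD, n = 3). Dbt was thus highest on array 1 and lowest on array 3, an order unlike that of both decarboxylase subunits by these probe sets. The contrast depended on the probe set and the scaling. The other, dimmer Bckdha probe set was highest on array 1, and Dbt changed its highest array after quantile normalization.

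In leucine breakdown, Ivd encodes isovaleryl-CoA dehydrogenase, which hands electrons to the electron transfer flavoprotein. Its signals were 1265, 1312 and 1615 (1397 ± 190, SD, n = 3), so array 3 stood above the other arrays. Mccc1 encodes the biotin-carrying subunit of methylcrotonyl-CoA carboxylase. Its signals of 923, 904 and 818 (882 ± 55.8, SD, n = 3) were close together, with array 3 the lowest.

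In valine breakdown, Hibadh, the gene of 3-hydroxyisobutyrate dehydrogenase, gave 5750, 5308 and 5797 (5618 ± 270, SD, n = 3). Its coefficient of variation of 4.81% was the smallest of the 10 genes. Aldh6a1 encodes methylmalonate semialdehyde dehydrogenase, which makes propionyl-CoA, and it gave 6533, 5202 and 5361 (5699 ± 727, SD, n = 3). Array 1 stood above the other arrays for Aldh6a1, whereas for Hibadh arrays 1 and 3 were nearly equal.

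The propionyl-CoA carboxylase genes Pcca, for the biotin-carrying subunit, and Pccb, for the carboxyltransferase subunit, were both lowest on array 2. Pcca gave 1416, 1167 and 1202 (1262 ± 135, SD, n = 3), and Pccb gave 2004, 1757 and 1999 (1920 ± 141, SD, n = 3). Mmut, the gene of methylmalonyl-CoA mutase, gave 1309, 1142 and 1060 (1170 ± 127, SD, n = 3) and was highest on array 1. Coefficients of variation over the 10 genes ran from 4.81% to 14.2%, the largest being that of Bckdhb.

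The preparations were compared on the log2(signal + 16) scale after centring each array on its median. A member's range over the 3 arrays ran from 0.11 log2 units for Mccc1 to 0.46 for Bckdhb, with a median of 0.28. The median range of the 7108 genes above the median level was also 0.28. None of the 10 members reached a range of 1 log2 unit (2-fold), as 1.39% of those 7108 genes did, and 82.2% of them had a range no larger than that of Bckdhb. Each array is a single preparation, so these differences have no test. The members' median deviation from their own means was 0.06, -0.11 and 0.04 on arrays 1, 2 and 3, beside 0.07, -0.08 and 0.01 for the 7108 genes. With this centring, array 2 was the lowest both for the members and for those genes. After quantile normalization it was the lowest for neither, with medians of -0.02 on array 1 and 0.00 on array 2 for the members and of 0.01 on array 2 for the 7108 genes.

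By this scale, 5 members were highest on array 1 (Dbt, Mccc1, Pcca, Mmut and Aldh6a1) and 5 on array 3 (Bckdha, Bckdhb, Ivd, Pccb and Hibadh), and 0 on array 2. Of the 7108 genes, 53.1% were highest on array 1, 12.5% on array 2 and 34.5% on array 3. Members lowest on arrays 1, 2 and 3 numbered 1, 6 and 3, beside 16%, 56.7% and 27.3% of the 7108 genes. The deviations were largest for Bckdhb on array 2 (-0.27) and for Ivd on array 3 (0.26). After quantile normalization, Dbt and Mccc1 changed their highest array and Bckdha, Pcca, Hibadh and Aldh6a1 their lowest, so that 5 members were highest on array 3, 3 on array 1 and 2 on array 2. Members lowest on arrays 1, 2 and 3 then numbered 3, 2 and 5, so array 2 was no longer the lowest for most of them. The order of the arrays for these 6 genes thus depended on the scaling. Without centring, Pccb changed its highest array and Bckdha its lowest.

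**Figure D2:**
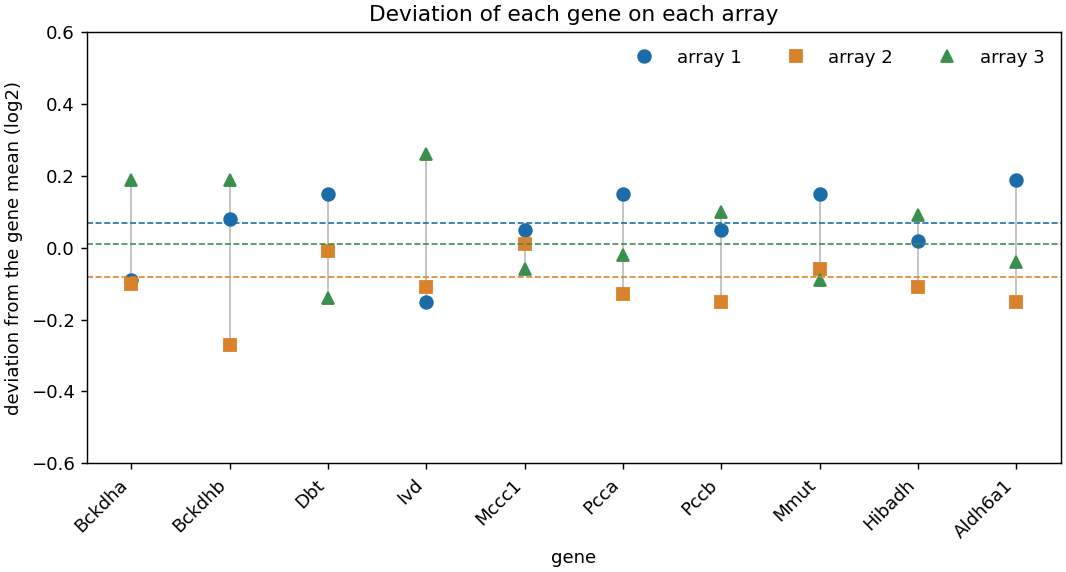
Deviation of each gene on each array from its own mean over the 3 arrays, in log2 units. Points are single arrays, grey lines span the range, and dashed lines give the median deviation of the 7108 genes above the median level; Bckdha, Bckdhb and Ivd are highest on array 3, at 0.19, 0.19 and 0.26.

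The subunits of a complex were then compared by how far their deviations moved apart. Bckdhb and Dbt differed by -0.07, -0.26 and 0.33 log2 units on arrays 1, 2 and 3 (SD 0.30), and Bckdha and Dbt by -0.24, -0.09 and 0.33 (SD 0.29). Bckdha and Bckdhb differed by at most 0.17 on any array (SD 0.17). The carboxylase pairs stayed closer, at most 0.12 for Pcca and Pccb (SD 0.12) and at most 0.10 for Mccc1 and its partner gene Mccc2 (SD 0.09). The genes' own SDs were 0.14 for Pcca, 0.13 for Pccb, 0.05 for Mccc1 and 0.08 for Mccc2. They were 0.17 for Bckdha, 0.24 for Bckdhb and 0.14 for Dbt. Genes that vary little also differ little, and whether subunits moved together was not tested. Without array 3, the SD of the difference fell to 0.14 for Bckdhb and Dbt and to 0.10 for Bckdha and Dbt, so the separation of Dbt from the decarboxylase genes rested on array 3. For scale, among 2081 genes with at least 2 probe sets above the array median, 16.1% had their 2 highest probe sets as far apart on some array as Bckdhb and Dbt, and the median gap was 0.18.

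For 4 members, more than 1 probe set measured the same gene, and 14 of the 15 member probe sets exceeded the array median on every array. The second Aldh6a1 probe set gave 2263, 1823 and 2390 and was highest on array 3, where the first was highest on array 1. The second Bckdha probe set gave 85.3, 69.5 and 73.2 and was highest on array 1, where the first was highest on array 3. The largest gap between the deviations of the pair was 0.24 for Aldh6a1 and 0.22 for Bckdha, beside ranges over the arrays of 0.34 and 0.29 for the probe sets used. On the centred scale, all 4 of these probe sets were lowest on array 2, as were 56.7% of the 7108 genes.

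The 3 Mmut probe sets behaved alike at the upper end. The second gave 908, 782 and 778 and the third 518, 411 and 472, and like the first both were highest on array 1, while on the centred scale the lowest array was 3 for the first and 2 for the others. Of the 2081 genes, 53.8% had their 2 highest probe sets highest on the same array. The second Dbt probe set gave 17.1, 10.2 and 1.33, below the array median on all 3 arrays, and is the only member probe set of which this was true. It was highest on array 1 and lowest on array 3, as was the first, but its 12.8-fold spread came from signals below the array median, for which no detection call was used.

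**Figure D3:**
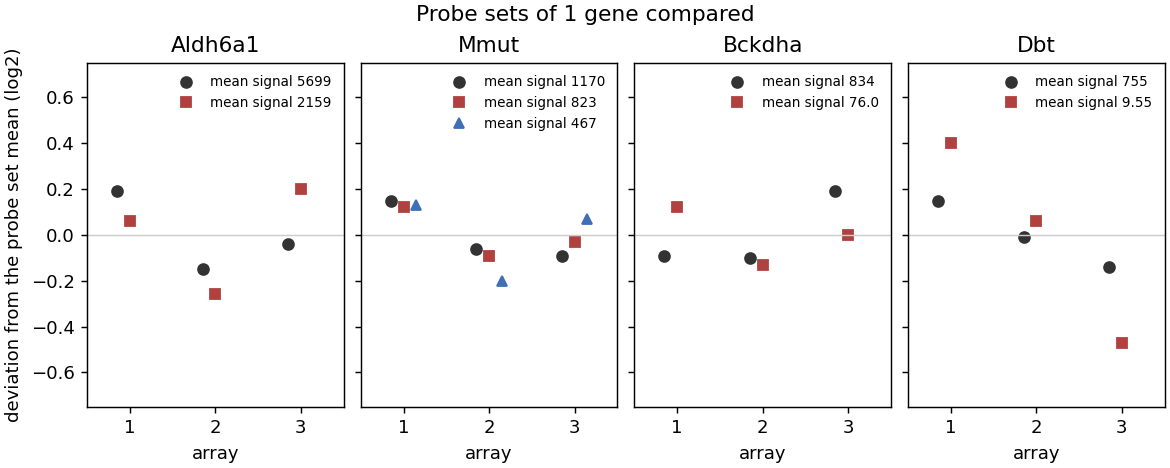
Deviation of each probe set of Aldh6a1, Mmut, Bckdha and Dbt from its own mean over the 3 arrays, in log2 units, with the mean signal of the probe set in the legend. Probe sets of Mmut are all highest on array 1, whereas those of Aldh6a1 and of Bckdha are highest on different arrays.

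The genes around the members were examined in 4 lists of 42 genes, of which 39 were measured and 37 exceeded the array median every time. Of all named genes, 61.0% did so, and this share stands beside the counts of each list below. On the centred log2(signal + 16) scale, none of the 39 ranged by 2-fold or more, as 1.39% of the 7108 genes above the median level did. The largest range, 0.77 log2 units, was that of Bcat1, whose low signals the added 16 brings closer together. Ranges of these 39 under other pseudocounts were not counted. Entry and control genes were above the median in 5 of 6 cases. Bcat2, the mitochondrial transaminase gene, gave 252, 299 and 323, whereas the cytosolic transaminase gene Bcat1 gave 34.7, 33.1 and 12.4 and was below the median each time. Bckdk, the kinase that inactivates the dehydrogenase, gave 951, 729 and 1053. It was highest on array 3 and lowest on array 2. Ppm1k, the phosphatase that reactivates the complex, gave 309, 301 and 262, and Dld, the dihydrolipoyl dehydrogenase shared with other complexes, gave 2165, 1869 and 1724. Ppm1k and Dld were highest on array 1 and lowest on array 3. Slc25a44, a mitochondrial carrier of branched-chain amino acids, gave 226, 232 and 182.

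Middle steps were above the median in 11 of 11 measured genes. Mccc2, the other subunit gene of methylcrotonyl-CoA carboxylase, gave 2120, 1906 and 1940, and Hsd17b10 of isoleucine breakdown gave 2909, 2257 and 2850. Acadsb, the dehydrogenase of the isoleucine branch, gave 84.2, 67.6 and 50.7 and was highest on array 1 and lowest on array 3. On the centred scale, 10 of these 11 genes were lowest on array 2, as were 56.7% of the 7108 genes. The low position of array 2 depended on the scaling. The median deviation of the 7108 genes on array 2 was -0.08 with centring and 0.01 after quantile normalization.

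Propionate and cobalamin genes were above the median in 14 of 14 measured cases. Mcee, the epimerase between the carboxylase and the mutase, gave 879, 686 and 842. Tcn2, which encodes the cobalamin carrier transcobalamin, gave 5054, 4310 and 4873, and Cd320, its receptor, gave 527, 544 and 536. Mmaa, which guards and loads the mutase with its cofactor, was nearly constant at 101, 103 and 105. The largest range in this list was that of Mmadhc, a cobalamin trafficking gene, at 2381, 1412 and 2007 (0.75 log2 units), which was lowest on array 2. Acss3, a synthetase that makes propionyl-CoA from propionate, gave 4252, 3972 and 4076.

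Genes of cofactor supply and electron transfer were above the median in 7 of 8 measured cases. Hlcs, the ligase that attaches biotin to the carboxylases, gave 49.6, 43.7 and 26.4 and was below the median on array 3. Slc5a6, the biotin and pantothenate carrier gene, gave 463, 328 and 369, and Lias, the lipoate synthase gene, gave 669, 598 and 641. Etfdh, which passes electrons from flavoprotein dehydrogenases to ubiquinone, gave 1025, 944 and 988. Mmab and Lipt1 had no probe set annotated to them alone and were not analysed here.

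Beside these, a list of 12 measured TCA cycle genes had a median percentile of 98.4 and 11 mitochondrial fatty acid oxidation genes 94.4. Against 61.0% of all named genes, 12 of 12 and 11 of 11 of them were above the array median. Their median deviations on arrays 1, 2 and 3 were 0.07, -0.12 and 0.03 for the TCA cycle and 0.08, -0.19 and 0.11 for fatty acid oxidation, beside 0.06, -0.11 and 0.04 for the 10 members. The differences between the lists were not tested. None of their genes ranged by 2-fold or more, the largest ranges being 0.35 and 0.56 log2 units.

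**Figure D4:**
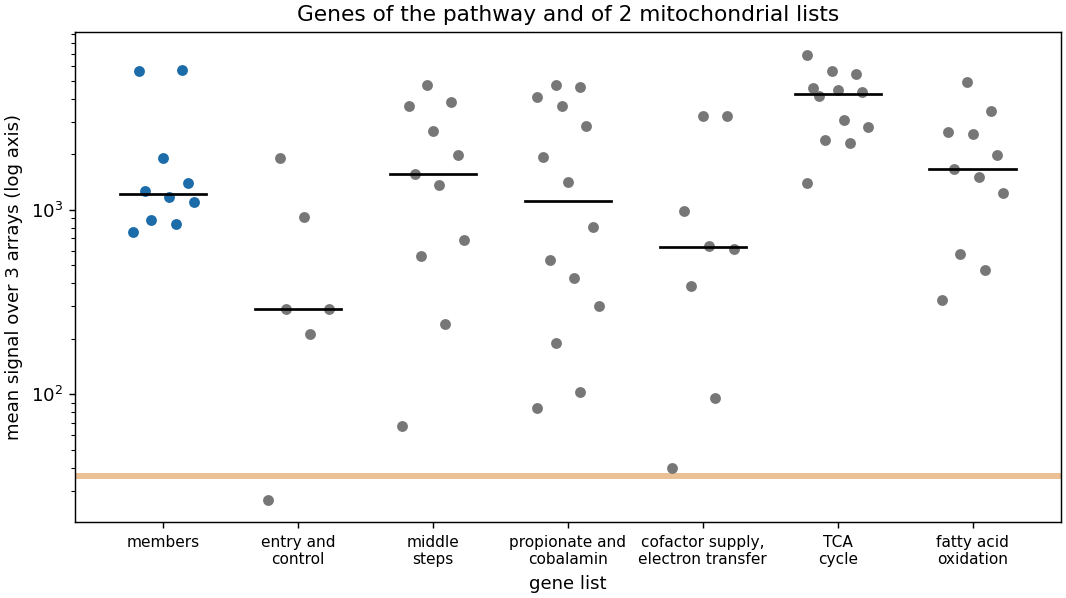
Mean signal over the 3 arrays (log axis) of each measured gene of the 10 members, the 4 pathway lists and 2 mitochondrial lists; each point is a gene, bars are list medians and the shaded band spans the array medians. Bcat1 is the only point below the band, and the members, in blue, lie between 755 and 5699.

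Markers of the labelled cell type and of other cells were examined. The lists were chosen with earlier results of these data known, so they are not an independent check of the label. All 15 proximal tubule markers exceeded the median of every array, at a median percentile of 99.6. On the centred scale 14 of them were lowest on array 2, beside 6 of the 10 members and 56.7% of the 7108 genes. After quantile normalization, 2 of the 10 members were lowest on array 2. All 7 thick ascending limb markers also lay above the median, at a median percentile of 94.8, beside 92.1 for the members. Signals of these markers ran from 75.8 to 5474, with sums of 15947, 13471 and 13982 on arrays 1, 2 and 3. The share of the member signals from the thick ascending limb was not measured. In such bulk samples, fewer cells of a type and less RNA per cell cannot be told apart. On the centred scale, array 3 was highest for 4 of 4 distal and connecting tubule markers and 6 of 7 collecting duct markers. It was also highest for 3 of 5 endothelial and 4 of 6 white blood cell markers, and for 5 of the 10 members. The same held for 4 of 15 proximal tubule, 2 of 7 thick ascending limb, 2 of 7 hepatocyte and 0 of 4 podocyte markers. Of the 7108 genes above the median level, 34.5% were highest on array 3. Over arrays 1, 2 and 3, summed signals were 999.7, 875 and 1307 for the distal and connecting tubule list. They were 1150, 1031 and 1197 for the collecting duct list and 756, 1059 and 1269 for the endothelial list. In these lists, Aqp3 gave 868 ± 66.6, Hsd11b2 154 ± 36.0, Slc12a3 660 ± 119 and Calb1 299 ± 88.1 (SD, n = 3), all above the median of every array. In contrast, Aqp2 and Aqp4 of the collecting duct reached at most 32.9 and 10.2, and Pvalb at most 3.43, all below the array median. Of the markers of other cells, 5 of 5 endothelial, 3 of 4 distal and connecting tubule, 2 of 7 collecting duct, 1 of 4 podocyte, 1 of 6 white blood cell and 1 of 7 hepatocyte markers exceeded the median of every array, and Nphs1, Cd3d and Otc reached at most 12.9, 4.10 and 2.11. For beta-actin, the signal of the 3' control divided by that of the 5' control was 3.85, 3.28 and 3.66, lowest on array 2, and for GAPDH it was 1.52, 1.52 and 1.40, lowest on array 3. The part of other cells and of RNA quality in the differences between arrays was not tested.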

How the data were processed

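Transcripts of 3 proximal tubule preparations were measured on 1 Affymetrix array each. The deposited values are signal intensities of probe sets, not log-transformed; the summarisation software and the scaling between arrays are not given in the sources used here. Of 31099 probe sets, 57 were controls, 20826 named 1 gene, 9780 were without a named gene here, and 436 that named several were not used. Symbols came from the platform annotation, and 20758 of these had a gene identifier present in RefSeq (GRCr8), which changed 0 symbols. A gene took its probe set of highest mean signal.

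For comparisons between arrays, log2(signal + 16) was centred on each array's median over non-control probe sets. With 1 group, values are given per array and as mean ± SD, with no test. The number of arrays limits precision. Genes above the median level are the 7108 named genes whose mean centred log2 value exceeds the median of all.

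The members and lists were chosen with earlier results of these data known. The rule for named genes allowed all 10 members and every gene of the pathway and marker lists; genes alike in pattern were not named, since 3 arrays do not define one. The comparison of 2 probe sets per gene and the promoter search were added after the data were seen. Computations used Python 3.11.15, pandas 2.3.3 and numpy 2.4.6 and were tested on simulated data. Alternatives were other pseudocounts, scalings, probe set rules and lines for a high signal, and leaving out each array.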

Additional observations from a re-analysis of the deposited data

How the results depend on the processing

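No paired analysis was possible because there is 1 group. Of 133 values under alternatives, 124 moved by less than the spread between arrays or, for counts, stayed within 1.5 times. Some of these values could not move. The 6 members with 1 probe set keep their signal when probe sets are averaged. No member probe set carries a suffix, so dropping those with a suffix leaves the member signals unchanged. A member above the median is also above the 25th percentile. The members' small median deviations nevertheless changed sign: on array 1 from 0.06 to -0.02 with quantile normalization, and on array 3 from 0.04 to -0.01 without centring and to -0.01 without array 2. All 10 members stayed above the 25th percentile, the median and the 75th percentile of the arrays, and 0 reached a 2-fold range under pseudocounts of 1 and 64, quantile normalization, no centring and both probe set rules. The median percentile of the members, 92.1, was 93.1 with a gene's probe sets averaged, 92.3 when probe sets marked by suffix as shared between transcripts were dropped, and 90.2 without the lowest 20% of genes. Averaging probe sets lowered the mean signals of Bckdha to 455, Dbt to 382, Mmut to 820 and Aldh6a1 to 3929, since their other probe sets are dimmer, and made array 2 the lowest for Mmut. Leaving out each array in turn gave SDs from 0.10 to 0.40 for the difference of Bckdha and Dbt and from 0.14 to 0.41 for Bckdhb and Dbt. Of the 39 pathway genes, 37 to 38 lay above the median without 1 array. With all 3 arrays, 39 lay above the 25th percentile and 32 above the 75th. Without detection calls, signals near or below the array median could not be told from background.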
